A study of Homo sapiens with 6 samples.

Results

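Integrin subunits are the 8 genes of the PCR array whose symbols begin with ITGA or ITGB, out of 89 genes in the deposited table. They comprise 5 α subunits (ITGA1, ITGA2, ITGA3, ITGA4 and ITGAV) and 3 β subunits (ITGB1, ITGB3 and ITGB5), and all were chosen by name, not by their values. Integrins are receptors of the cell surface in which one α and one β chain form a dimer that binds proteins of the extracellular matrix and connects them to the cytoskeleton. The α chain largely sets the ligand, and the β chain carries much of the link to intracellular signaling, so the partners available to a cell bear on how it attaches and moves. β1 (ITGB1) is the shared partner of α1 and α2, which form collagen receptors, of α3, which forms a laminin receptor, and of α4, which binds fibronectin and VCAM-1. αV (ITGAV) pairs with β1, β3 and β5 in receptors for vitronectin, fibronectin and other ligands with an RGD sequence.

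The array asked which transcripts differ when the oncogene CaSm (LSM1), which is part of a complex for messenger RNA decay, is induced in Panc-1 cells, a human pancreatic adenocarcinoma line. The table holds 6 plates, which make 3 conditions of 2 plates. Induced cells were tet-on CaSm cells, which carry the tet-on plasmid and the inducible full-length human CaSm, with 1 μg/ml doxycycline. Non-induced cells were the same tet-on CaSm cells without doxycycline, and driver cells carried the tet-on plasmid without CaSm and received 1 μg/ml doxycycline. All were cultured for 4 weeks. Each line is a stably transfected pool, the CaSm pool was made from part of the driver pool, and only the CaSm pool was selected with puromycin as well as G418. Driver cells therefore differ from induced cells in the CaSm plasmid and this selection together. Non-induced cells differ from induced cells in doxycycline itself as well as in the induction. They differ from driver cells in doxycycline, plasmid and selection together. The plate titles carry 3 different marks, whose meaning the labels do not state, and replicates are numbered by these marks: 1 and 2 for induced and non-induced cells, 2 and 3 for driver cells. Whether replicate plates were read from different cultures is not stated, so the p-values measure the spread between these plates, which may be technical. LSM1 was not analysed here, and none of 6 epithelial and ductal markers listed for Panc-1 cells, and none of 3 markers of other cells, was among the 89 genes, so neither the induction nor the cell identity was checked from these values.

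Levels are given as ΔCt, the threshold cycle of a gene minus the mean threshold cycle that the reference genes B2M, HPRT1 and GAPDH had on that plate, so a smaller ΔCt means more transcript and 1 cycle stands for about 1 log2 unit. That mean lay between 19.7 and 20.3 cycles on the 6 plates. All 8 integrin subunits, and 79 of the 89 genes in total, crossed the threshold before cycle 35 on every plate. In RNA from whole cultures, fewer cells with a transcript and less of it per cell cannot be told apart.

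ITGB1 was the most abundant subunit by this measure, with a mean ΔCt of 0.47 over the 6 plates, and ranked between the third and eighth earliest of all 89 genes on every plate. ITGB5 followed at 1.13, ITGA3 at 1.80, ITGAV at 2.27 and ITGA2 at 3.77, which places these 5 subunits among the 40 earliest genes on every plate. ITGB3 had a mean ΔCt of 6.97, ITGA1 of 7.87 and ITGA4, the α4 chain best known from leukocytes, of 11.9. The span from ITGB1 to ITGA4 was 11.4 cycles. Ct is not corrected for the length of the amplified fragment or for primer efficiency, so this order between genes is a description and its smaller steps have no test.

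Several neighbours in this order did not differ beyond the spread of their plates. ITGB1 and ITGB5 overlapped on the driver plates, where ITGB1 had a ΔCt of 0.73 and 1.25 and ITGB5 of 1.20 and 1.10. They were apart in induced and non-induced cells, by 1.10 and 0.735 cycles on average. ITGA3 and ITGAV also overlapped in driver cells and were apart by 0.86 cycles in induced and 0.72 cycles in non-induced cells. ITGB5 and ITGA3 overlapped in non-induced cells, 0.405 cycles apart on average, and were apart by 1.26 cycles in driver and 0.325 cycles in induced cells. ITGB3 and ITGA1 were 0.03 cycles apart in non-induced and 0.605 cycles apart in driver cells, with overlapping plates in both. In induced cells they were 2.06 cycles apart without overlap, ITGB3 having more transcript. ITGA2 was separated from ITGAV and from ITGB3, and ITGA4 from ITGA1, in all 3 conditions.

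**Figure D1:**
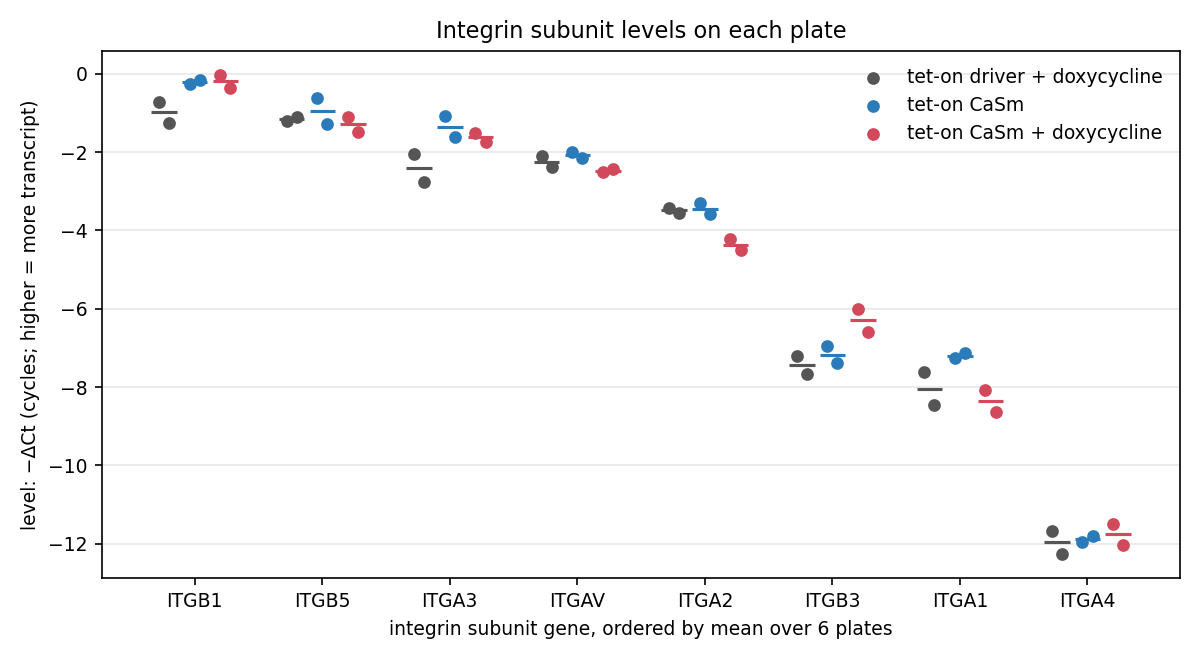
Level of each integrin subunit on each of the 6 plates, as −ΔCt in cycles on the vertical axis, so that higher points mean more transcript. Points are plates and bars are the mean of the 2 plates of a condition. Subunits are ordered by their mean over the 6 plates, from ITGB1 to ITGA4, 11.4 cycles apart. The induced plates of ITGA2 lie under, and those of ITGB3 above, all 4 control plates.

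The subunits were then compared between conditions by limma, fitted to −ΔCt over all 6 plates and all genes, with Benjamini-Hochberg adjustment over all genes tested. Between induced and driver cells, ITGB3 rose and ITGA2 fell, and between induced and non-induced cells ITGB3 rose while ITGA2 and ITGA1 fell. ITGAV, ITGB5, ITGA4, ITGA3 and ITGB1 passed the threshold in none of the 4 comparisons. Thus 2 of 8 subunits passed against driver cells, beside 23.5% of the 85 genes tested (10.6% higher and 12.9% lower, with 1 subunit each way). Against non-induced cells 3 of 8 passed, 1 higher and 2 lower, beside 25.3% of the 83 genes tested (7.23% higher and 18.1% lower). Against both controls together ITGB3 and ITGA2 passed, 1 each way, beside 22.4% of 85 genes (10.6% higher and 11.8% lower). Between non-induced and driver cells 0 of 8 passed in limma, beside 7.06% of 85 genes (3.53% higher and 3.53% lower). The split of all genes turned with the scaling: with GAPDH alone 24 genes were higher and 5 lower against driver cells and 11 higher and 4 lower against non-induced cells, and with the plate median 13 were higher and 9 lower against the latter. From these shares nothing was read about the subunits as a group. These comparisons share plates and are not independent of each other. The median log2 fold change of the 8 subunits was 0.03 against driver cells and −0.31 against non-induced cells, beside −0.08 and −0.21 for all genes tested.

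**Figure D2:**
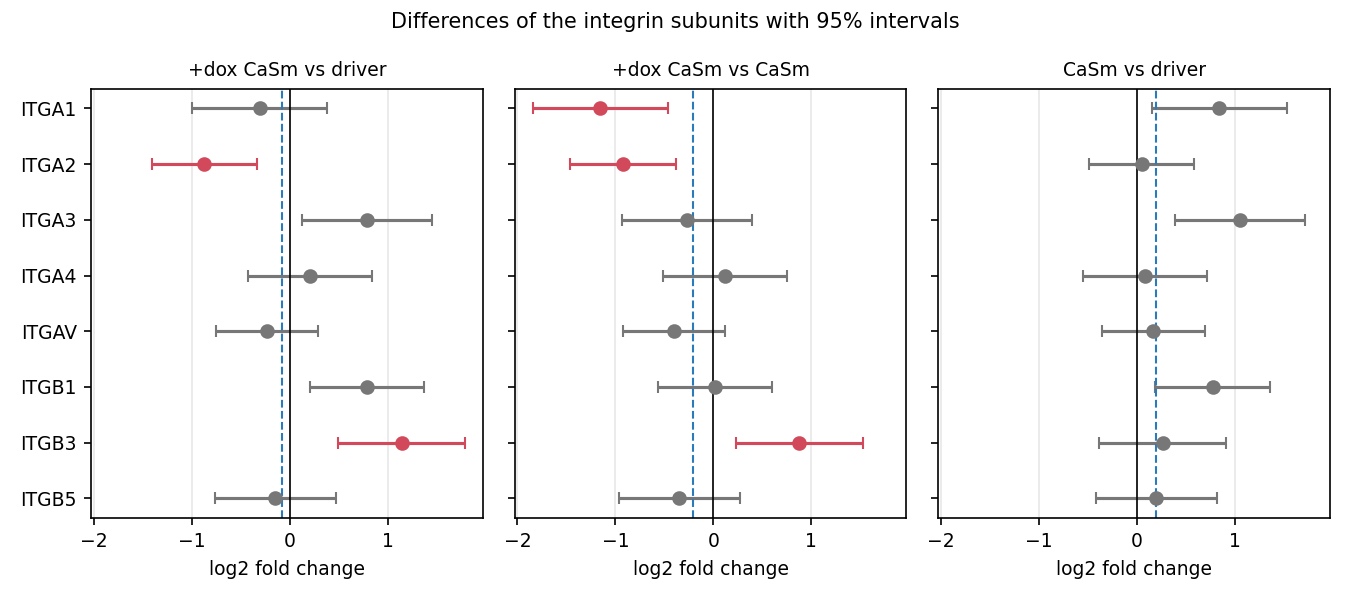
Log2 fold change of each integrin subunit with its 95% confidence interval from limma. The panels show induced tet-on CaSm cells against driver cells, induced against non-induced tet-on CaSm cells, and non-induced tet-on CaSm cells against driver cells. Red marks the subunits called at an adjusted p of 0.05, and the dashed line is the median of all genes tested. ITGB3 and ITGA2 are marked in both comparisons of induced cells, ITGA1 against non-induced cells, and no subunit between the controls.

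ITGB3 encodes β3, the partner of αV in a vitronectin receptor. Its ΔCt was 7.22 and 7.66 in driver cells, 6.96 and 7.39 in non-induced cells, and 6.0 and 6.60 in induced cells. Both induced plates thus had more ITGB3 transcript than any control plate. The increase was 2.21-fold against driver cells (1.14 ± 0.29 on the log2 scale with its standard error, limma adjusted p = 0.0199), the 8th largest increase of 85 genes, and 1.84-fold against non-induced cells (0.88 ± 0.29, limma adjusted p = 0.0489). Against both controls it was 2.01-fold (adjusted p = 0.0126 from limma). On the plates with mark 2 alone, 1 per condition, the log2 fold change was 0.62 against driver and 0.80 against non-induced cells. Of 10 alternatives, 6 kept the ITGB3 call against driver cells (adjusted p from 8.7e-05 to 0.291) and 5 kept it against non-induced cells (0.0043 to 0.392). Against driver cells it was ended by the Ct limit of 40, limma without moderation, the methods' t-test and a block by mark, in which the log2 fold change was 0.66 (limma adjusted p = 0.291). Against driver cells the call was lost without driver replicate 3 (0.92) or induced replicate 1 (0.84), and against non-induced cells without induced replicate 1 (0.58) or non-induced replicate 1 (1.10) or 2 (0.66), all as log2 fold changes. Against both controls it was lost without induced replicate 1 (0.71) or non-induced replicate 2 (0.90).

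ITGA2 encodes α2, which with β1 forms a collagen receptor of epithelial cells and platelets. For ITGA2 the ΔCt was 3.43 and 3.56 in driver cells, 3.31 and 3.58 in non-induced cells, and 4.23 and 4.51 in induced cells. Both induced plates had less ITGA2 transcript than any of the 4 control plates, which overlapped with each other. The decrease was 1.83-fold against driver cells (−0.87 ± 0.24 on the log2 scale with its standard error, limma adjusted p = 0.029) and 1.89-fold against non-induced cells (−0.92 ± 0.24, limma adjusted p = 0.0261). Against both controls it was 1.86-fold (adjusted p = 0.0093 from limma). The log2 fold change within mark 2 was −1.08 against driver and −0.92 against non-induced cells. Of 10 alternatives, 4 kept the ITGA2 call against each control (adjusted p from 0.0011 to 0.301 and from 0.0010 to 0.246), and, of the plates left out in turn, only the omission of induced replicate 1 kept it. With any other plate left out the log2 fold change lay between −0.94 and −0.73 against driver cells (without driver replicate 2 or 3 or induced replicate 2) and between −1.06 and −0.78 against non-induced cells (without non-induced replicate 1 or 2 or induced replicate 2). Against both controls the call was lost without induced replicate 2 (−0.76).

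ITGA1 encodes α1, the other collagen-binding α chain of the panel. For ITGA1 the ΔCt was 7.27 and 7.13 in non-induced cells, 8.08 and 8.63 in induced cells, and 7.63 and 8.46 in driver cells. Induced plates had less transcript than non-induced plates without overlap, whereas the driver plates lay far apart and overlapped with the induced plates. The decrease was 2.22-fold against non-induced cells (−1.15 ± 0.31 on the log2 scale with its standard error, limma adjusted p = 0.0283), the 5th largest decrease of 83 genes. It was −0.81 within mark 1 and −1.49 within mark 2. Against driver cells the log2 fold change was −0.31 (95% confidence interval −1.0 to 0.38, adjusted p = 0.557 from limma), and it was −1.0 within mark 2. Without driver replicate 2 it was 0.11 and without driver replicate 3 it was −0.72, neither called, whereas with B2M alone it was −0.78 and called (limma adjusted p = 0.04). The difference of these effects is non-induced against driver cells, where the log2 fold change was 0.84 (limma adjusted p = 0.151), so the effects were not shown to differ. The ITGA1 call held in 5 of 10 alternatives (adjusted p from 0.0016 to 0.261) and, of the plates left out in turn, only without induced replicate 1. Its log2 fold change was −1.22 and −1.09 without non-induced replicate 1 and 2, and −0.88 without induced replicate 2.

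The genes of the collagen-binding chains, ITGA1 and ITGA2, lie on the same strand of chromosome 5, and their promoter windows are shown because both fell against non-induced cells. Sequences are from RefSeq (GRCh38.p14), with 250 bases before and 50 bases after the annotated start of the gene, plus strand, at chr5:52787666-52787965 for ITGA1 and chr5:52989102-52989401 for ITGA2. Capitals mark matches, on either strand, to any of 4 motifs: the AP-1 site TGANTCA, the E-box CACGTG, the ETS site CCGGAAG and the GC box GGGCGG.
ITGA1: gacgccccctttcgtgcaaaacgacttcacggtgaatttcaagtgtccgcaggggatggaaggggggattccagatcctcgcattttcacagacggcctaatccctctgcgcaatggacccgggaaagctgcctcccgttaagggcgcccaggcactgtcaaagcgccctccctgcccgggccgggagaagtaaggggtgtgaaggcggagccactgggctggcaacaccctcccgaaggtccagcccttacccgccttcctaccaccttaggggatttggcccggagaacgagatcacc
ITGA2: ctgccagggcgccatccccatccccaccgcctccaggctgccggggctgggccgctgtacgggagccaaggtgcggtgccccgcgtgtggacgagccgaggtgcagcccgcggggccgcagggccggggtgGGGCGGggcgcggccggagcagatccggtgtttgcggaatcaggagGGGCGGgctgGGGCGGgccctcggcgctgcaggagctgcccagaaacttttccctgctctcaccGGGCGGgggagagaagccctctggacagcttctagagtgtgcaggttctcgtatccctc
The ITGA2 window held 4 GC boxes, which begin 119, 73, 63 and 9 bases before the start, and no match to the other motifs. The ITGA1 window held no match to any of the 4 motifs. Of 35116 promoter windows of the same length, 45.0% held a GC box, 10.3% an ETS site, 7.71% an AP-1 site and 7.26% an E-box. The GC content was 61.7% for ITGA1 and 72.7% for ITGA2, beside a median of 58.7% over all windows. A match describes these letters only, and binding was not measured.

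ITGB1 and ITGA3 are the subunits of the laminin receptor α3β1. Relative to B2M, HPRT1 and GAPDH together, both had more transcript on every tet-on CaSm plate, induced or not, than on the driver plates. ITGB1 had a ΔCt of 0.03 and 0.37 in induced cells, 0.27 and 0.16 in non-induced cells, and 0.73 and 1.25 in driver cells. ITGA3 had a ΔCt of 1.51 and 1.74 in induced cells, 1.09 and 1.62 in non-induced cells, and 2.05 and 2.77 in driver cells. For both genes driver replicate 3 had the least transcript of all plates. Against driver cells the log2 fold change in induced cells was 0.79 (standard error 0.26) for ITGB1 and 0.79 (standard error 0.30) for ITGA3, with adjusted p-values of 0.0504 and 0.0843 from limma. In non-induced cells it was 0.77 for ITGB1 and 1.05 for ITGA3, the 7th and 3rd largest increases of 85 genes, with adjusted p-values of 0.12 and 0.0538 from limma. These values did not pass the threshold. Without driver replicate 3 they were 0.53 and 0.42 in induced cells, and 0.51 and 0.69 in non-induced cells. Without driver replicate 2 they were 1.05 and 1.15 in induced cells, and both passed (limma adjusted p = 0.0447 and 0.0271). ITGB1 also passed without induced replicate 2 (0.96), with the filter on late genes and with GAPDH alone, and ITGA3 with GAPDH alone. Within mark 2 the values in induced cells were 0.36 and 0.31. For ITGB1 and ITGA3 in that order, they were 0.325 and 0.32 with B2M alone, and 0.545 and 0.54 with the plate median. With a block by mark they were 0.47 and 0.23. In non-induced cells the log2 fold change against driver cells lay between 0.23 and 0.83 for ITGB1 over 10 alternatives. For ITGA3 it lay between 0.5 and 1.11. ITGA3 passed there in 4 of the 10 alternatives and ITGB1 in 0. Between induced and non-induced cells ITGB1 differed by 0.02 (95% confidence interval −0.57 to 0.60) and ITGA3 by −0.27 (−0.93 to 0.40) on the log2 scale.

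The remaining 3 subunits had small differences relative to their error. ITGAV had a ΔCt of 2.11 and 2.38 in driver, 2.00 and 2.15 in non-induced, and 2.51 and 2.45 in induced cells. Its induced plates lay just beyond those of both controls, with log2 fold changes of −0.23 (95% confidence interval −0.76 to 0.29) against driver and −0.40 (−0.93 to 0.12) against non-induced cells. ITGB5, the other αV partner in vitronectin receptors, had a ΔCt of 1.20 and 1.10 in driver, 0.62 and 1.28 in non-induced, and 1.12 and 1.48 in induced cells. It had log2 fold changes of −0.15 (95% confidence interval −0.77 to 0.47) and −0.35 (−0.96 to 0.27), with overlapping plates. The ΔCt of ITGA4 was 11.7 and 12.3 in driver, 12.0 and 11.8 in non-induced, and 11.5 and 12.0 in induced cells. ITGA4 had log2 fold changes of 0.21 (95% confidence interval −0.43 to 0.84) and 0.12 (−0.51 to 0.76), also with overlapping plates, and its Ct lay between 31.2 and 32.5. All of these intervals include 0.

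The sign of the smaller differences depended on the gene used for normalization. B2M alone moved every log2 fold change of induced against driver cells by −0.47 and GAPDH alone by 0.39, whereas HPRT1 alone moved it by 0.07. The plate median of the detected genes moved it by −0.25, and that of induced against non-induced cells by 0.30. It moved that of non-induced against driver cells by −0.54. ITGB3 stayed positive and ITGA2 negative against both controls under each of these scalings, and ITGA1 stayed negative against non-induced cells. Against driver cells ITGA1, ITGAV and ITGB5 turned positive with GAPDH alone, and ITGA4 turned negative with B2M alone and with the plate median.

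**Figure D3:**
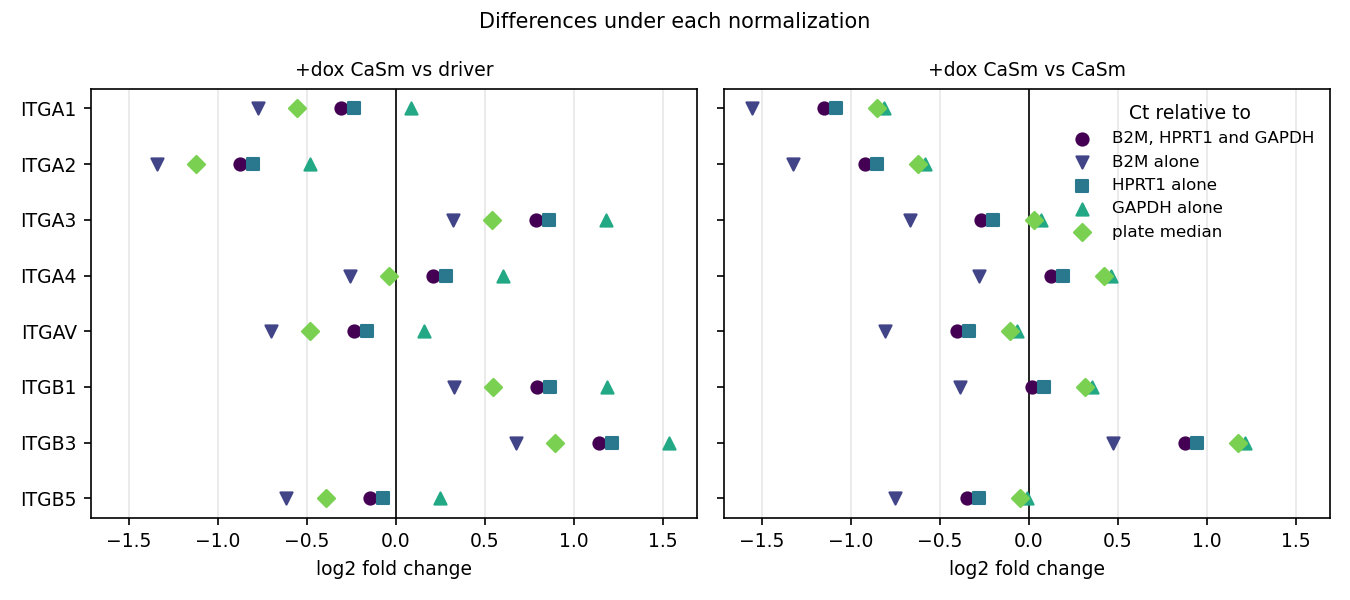
Log2 fold change of each integrin subunit in induced cells against driver cells (left) and against non-induced cells (right) when Ct is taken relative to the mean of B2M, HPRT1 and GAPDH, to each of them alone, or to the plate median of detected genes. All subunits shift together under a change of scaling. ITGB3 stays above 0 and ITGA2 under 0 in both panels.

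The relation of an α chain to its β partner does not depend on these reference genes, because both were read on the same plate. For each of the 7 known pairs among the 8 subunits, the gap is the Ct of the α gene minus that of the β gene. For β1 the α genes all appeared later than ITGB1, by 0.82 to 1.52 cycles for ITGA3 and by 10.9 to 11.7 cycles for ITGA4 over the 6 plates. ITGAV appeared 0.87 to 1.39 cycles after ITGB5 and before ITGB3 on every plate, with differences from −5.28 to −3.49 cycles. ITGAV was therefore far closer to ITGB5 than to ITGB3 in Ct in all 3 conditions.

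The α2-β1 gap was 2.70 and 2.31 cycles in driver cells, 3.04 and 3.42 in non-induced cells, and 4.2 and 4.14 in induced cells. The conditions did not overlap, and induced cells were 1.67 cycles from driver cells and 0.94 cycles from non-induced cells, or 3.17-fold and 1.92-fold less ITGA2 per ITGB1. With B2M, HPRT1 and GAPDH together, 0.87 cycles of the difference from driver cells came from ITGA2 and 0.79 cycles from ITGB1. That from non-induced cells was then almost all from ITGA2. Unlike the gap, this split depends on the reference genes. Against driver cells the log2 fold changes of ITGA2 and ITGB1 were −1.34 and 0.325 with B2M alone, and −0.48 and 1.185 with GAPDH alone. Against non-induced cells they were −1.325 and −0.385 with B2M alone, and −0.585 and 0.355 with GAPDH alone. The α1-β1 gap was 6.90 and 7.21 cycles in driver cells and 7.0 and 6.97 in non-induced cells, which overlap, against 8.05 and 8.26 in induced cells. Relative to ITGB1, ITGA1 was thus 2.14-fold lower than in driver cells and 2.25-fold lower than in non-induced cells, without overlap with any control plate. With B2M, HPRT1 and GAPDH together, 0.31 of the 1.10 cycles from driver cells came from ITGA1, whose own plates overlapped, and 0.79 from ITGB1. The 1.17 cycles from non-induced cells were then almost all from ITGA1. This split also depends on the reference genes. The log2 fold change of ITGA1 was −0.775 against driver and −1.555 against non-induced cells with B2M alone. With GAPDH alone it was 0.085 and −0.815.

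The αV-β3 gap was −5.11 and −5.28 cycles in driver cells and −4.96 and −5.24 in non-induced cells, against −3.49 and −4.15 in induced cells. ITGB3 was 2.59-fold higher per ITGAV than in driver cells and 2.43-fold higher than in non-induced cells, and the controls differed by 0.10 cycles. The αV-β5 gap was between 0.91 and 1.28 cycles in driver, 0.87 and 1.38 in non-induced, and 0.97 and 1.39 in induced cells. It overlapped in all comparisons, with differences of at most 0.09 cycles between condition means. The Ct of ITGB3 lay 6.02 and 6.56 cycles after that of ITGB5 in driver cells, 6.34 and 6.11 in non-induced cells, and 4.88 and 5.12 in induced cells. Among the β partners of αV, ITGB3 therefore gained on ITGB5 by 1.29 cycles against driver cells and 1.23 cycles against non-induced cells. On ITGB1, the other β partner, it gained 0.35 and 0.86 cycles. These contrasts between β genes were chosen after their values were seen. The α3-β1 gap overlapped in all comparisons. The αV-β1 gap was 1.38 and 1.13 cycles in driver, 1.73 and 1.99 in non-induced and 2.48 and 2.08 in induced cells. The α4-β1 gap was between 10.9 and 11.0 cycles in driver cells and between 11.5 and 11.7 cycles on the tet-on CaSm plates.

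In total, 5 of 7 gaps did not overlap between induced and driver cells, 4 of 7 between induced and non-induced cells and 3 of 7 between the controls. Against both controls together 4 of 7 did not overlap. By comparison, plates did not overlap for 54.1%, 61.4%, 50.6% and 36.5% of the single genes tested in these comparisons. Those shares are for ΔCt of single genes, a different measure from a gap, and no share over gaps of other gene pairs was computed. The pairs share subunits, mostly ITGB1, and are not independent of each other. For 2 plates against 2 the lowest p that an exact two-sided permutation of plates allows is 0.333, and for 2 against 4 it is 0.0667, so the gaps are reported without a call. The smallest value, an exact permutation p = 0.0667 against both controls, was reached by the α1-β1, α2-β1 and αV-β3 gaps. How much protein of each chain reaches the cell surface was not measured.

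**Figure D4:**
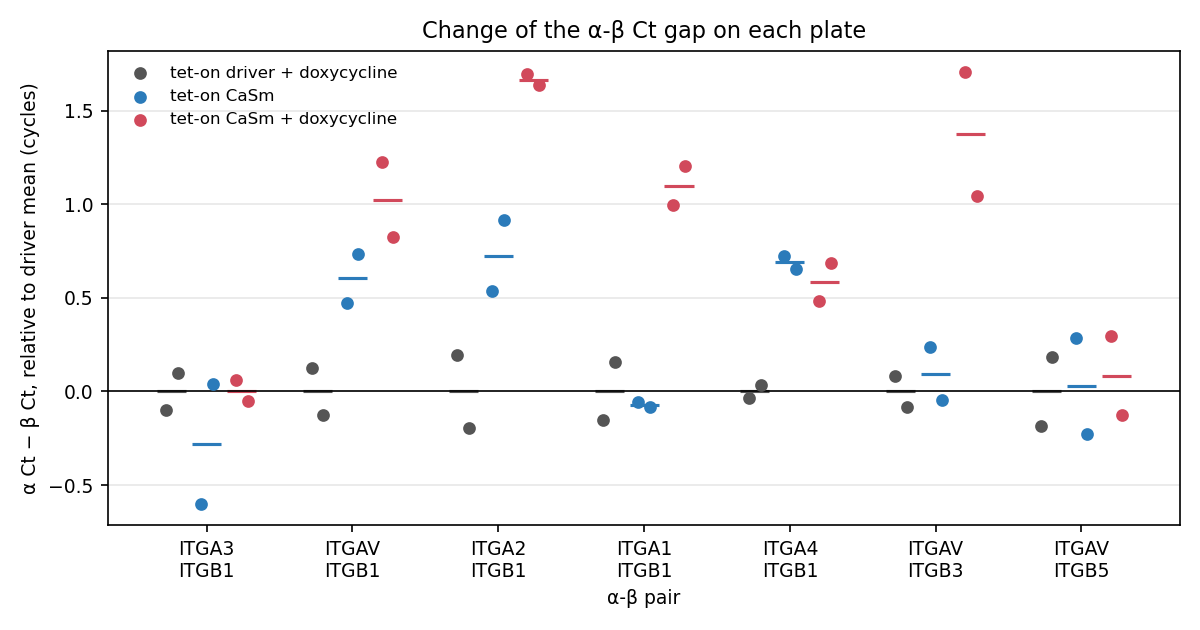
Ct of the α gene minus Ct of the β gene for the 7 pairs on each plate, in cycles, drawn relative to the mean of the driver plates. Points are plates and bars are means of the 2 plates of a condition. A higher point means less α per β transcript. The induced plates lie above all control plates for ITGA2, ITGA1 and ITGAV relative to ITGB1 and for ITGAV relative to ITGB3, and the conditions overlap for ITGA3 relative to ITGB1 and ITGAV relative to ITGB5.

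The genes with the most similar profile over the 6 plates were found for each called subunit, among 67 other genes under a Ct of 35, by the root mean square difference of centred −ΔCt. Nearest to ITGA2 were NME1, a nucleoside diphosphate kinase known as a metastasis suppressor (0.11 cycles), and BAD, a pro-apoptotic BCL2 family member (0.18 cycles), against a median of 0.46 cycles. NME1 and BAD also fell in induced cells, with log2 fold changes of −0.79 and −1.22 against driver cells and −1.02 and −1.04 against non-induced cells. Nearest to ITGA1 were APAF1, the scaffold of the apoptosome (0.13 cycles), and PIK3R1, a regulatory subunit of PI3 kinase (0.17 cycles), against a median of 0.54 cycles. Like ITGA1, they fell against non-induced cells, by 0.97 and 0.92 on the log2 scale. Against driver cells they had smaller differences of −0.40 and −0.45 that were not called. Nearest to ITGB3 were TNFRSF10B, a death receptor for TRAIL, and MYC, a transcription factor, at 0.22 and 0.23 cycles against a median of 0.60 cycles. Both rose against driver cells, with log2 fold changes of 1.48 and 1.5, and had values of 0.73 and 0.70 against non-induced cells without a call. ITGA1 and ITGA2 were 0.42 cycles from each other, below the median distance of either. This was not particular to them, since ITGA2 was nearer to ITGAV (0.30 cycles) and ITGB5 (0.34 cycles). ITGA1 was also 0.42 cycles from ITGAV. All 6 plates enter each of these distances, which are descriptions over shared plates. The named genes were picked for their likeness to a called subunit on these plates. That they changed in the same direction as the subunit follows largely from this choice and is not separate evidence.

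Genes that act with integrins were described from lists of such genes, of which each called member is named. Among 5 other adhesion genes measured (MCAM, MTSS1, PNN, SYK and EPDR1), only MTSS1 was called, which encodes an actin-binding protein named as a metastasis suppressor. MTSS1 rose against driver cells (1.84-fold, adjusted p = 0.029 from limma), beside 10.6% of all genes called higher. It also rose against non-induced cells (3.29-fold, adjusted p = 0.0010 from limma), beside 7.23% called higher. Of 3 integrin ligands and matrix genes (THBS1, COL18A1 and TGFB1), only THBS1 was called, which encodes thrombospondin-1, a ligand of several integrins. THBS1 rose 2.53-fold against driver cells (adjusted p = 0.0021 from limma), beside 10.6% of all genes called higher. It fell 1.64-fold against non-induced cells (adjusted p = 0.0489 from limma), beside 18.1% called lower. Non-induced cells were 4.15-fold above driver cells for THBS1. Of 7 genes of pericellular proteolysis, 2 rose against driver cells, PLAUR, the urokinase receptor, which associates with integrins at the membrane (2.90-fold, limma adjusted p = 0.0015), and MMP1, an interstitial collagenase (1.80-fold, adjusted p = 0.0384), beside 10.6% of all genes called higher. PLAUR was also 2.23-fold higher in non-induced than in driver cells (limma adjusted p = 0.0236). Of the 6 proteolysis genes tested against non-induced cells, which leave out TIMP3, only MMP1 was called (1.74-fold higher, adjusted p = 0.044 from limma). In that comparison 7.23% of all genes were called higher. The median log2 fold change against driver cells was 0.31 for the proteolysis list, 0.51 for the adhesion list, 0.22 for the ligands and −0.14 for the kinases and transcription factors below, beside −0.08 for all genes. Against non-induced cells these medians were 0.16, 0.17, −0.44 and −0.32, beside −0.21 for all genes. Of 7 kinases and transcription factors that act downstream of adhesion, none was called against driver cells, beside 23.5% of all genes. Against non-induced cells FOS (2.07-fold, adjusted p = 0.034 from limma) and PIK3R1 (1.89-fold, adjusted p = 0.0367) fell, beside 18.1% of all genes called lower.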

How the data were processed

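Panc-1 RNA was reverse transcribed and measured on a SYBR Green PCR array of cancer pathway genes. The deposited values are threshold cycles (Ct), an instrument unit on a log2-like scale given by the authors without normalization. How the threshold was set is not given in the sources used here. A further deposited table holds 2 columns of the authors' own fold changes and was not used. Values over 35 were set to 35, and ΔCt was the Ct minus the plate mean of B2M, HPRT1 and GAPDH. −ΔCt was fitted by limma 3.58.1 (R 4.3.3) with 1 mean per condition over all 6 plates (3 residual degrees of freedom), with Benjamini-Hochberg adjustment over all genes tested and a threshold of 0.05. The script was tested on simulated data. Exact permutation tests went through all assignments of the plates with numpy 2.4.6. The methods of the study used t-tests, which were run as an alternative, besides other normalizing genes, other Ct limits, a filter on late genes, other variance models, the replicate block and each plate left out. The precision is limited by 2 plates per condition.

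Named were all 8 subunits, the 2 genes most like each called subunit over the 6 plates, and each called member of 4 lists of genes that act with integrins. The members and lists were chosen with earlier results of these data known, and ITGA2 and ITGB3 are on a list of changed genes that the study drew from these plates, so their direction is not independent evidence. One further gene of the array is not reported here. Promoter sequences were from RefSeq, which matched 6 of the 8 subunits.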

Additional observations from a re-analysis of the deposited data

How the results depend on the processing

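ITGA2 and ITGB3 in the 3 comparisons of induced cells, and ITGA1 in that with non-induced cells, kept their direction in all alternatives run. Their calls were less stable. Another scaling or Ct limit could not change the order of the 8 subunits by mean level, so these settings did not test it. A scaling shifts all genes of a plate alike, and all subunits crossed the threshold before the lower limit. The filter on late genes left 7 subunits. The order of the means held with each plate left out, but single plates departed from it. On driver replicate 3 ITGB5 came before ITGB1 and ITGAV before ITGA3. On non-induced replicate 2 ITGA1 came before ITGB3. Over 452 recomputed values of single subunits, 339 kept their direction and side of the threshold, 48 lost a call, 24 gained one and 41 changed sign. The cause was not tested. The 339 include values that were not called and stayed so. Only called values could lose a call, so the 48 are not to be read as a share of the 452. With 2 plates per condition, small differences were not detectable, and no depth beyond the Ct was available.

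Against driver cells (2 subunits and 20 genes called), B2M alone gave 4 subunits and 44 genes (7 higher, 37 lower), HPRT1 alone 1 and 11 (7 higher, 4 lower), a Ct limit of 40 0 and 10, limma without moderation 0 and 5, the methods' t-test 0 and 2, and the fit of only the plates compared 1 and 11. GAPDH alone gave 29 genes (24 higher, 5 lower, against 9 and 11). Leaving out 1 plate gave 0 to 3 subunits and 15 to 17 genes, with 0 without driver replicate 3. Against non-induced cells (3 and 21), B2M alone gave 42 genes (2 higher, 40 lower), HPRT1 alone 0 subunits and 6 genes, GAPDH alone 1 subunit and 15 genes (11 higher, 4 lower, against 6 and 15), the plate median 22 genes (13 higher, 9 lower), a Ct limit of 40 0 and 8, limma without moderation 0 and 4, and the t-test 0 and 0. Leaving out 1 plate gave 0 to 2 subunits and 3 to 20 genes, with 0 subunits without either non-induced plate. Against both controls (2 and 19), B2M alone gave 5 subunits and 57 genes (8 higher, 49 lower), GAPDH alone 23 genes (18 higher, 5 lower, against 9 and 10), a Ct limit of 40 1 subunit, limma without moderation 0 and 4, and the t-test 1 and 5. Leaving out 1 plate gave 1 to 3 subunits and 13 to 25 genes. Between the controls (0 and 6), B2M alone, GAPDH alone, the filter on a mean Ct under 30 and the fit of only the plates compared gave 1 subunit each, HPRT1 alone 2 genes, the plate median 7 genes (1 higher, 6 lower, against 3 and 3), GAPDH alone 6 (4 higher, 2 lower), a Ct limit of 40 1 gene, limma without moderation 1 and the t-test 0. Leaving out 1 plate gave 0 to 2 subunits and 1 to 7 genes. Against both controls, the fit of only the plates compared is the fit reported.

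The replicate block by the mark on the plate gave 1 subunit (ITGA2) and 16 genes against driver cells, where ITGB3 was 0.66 and not called, 3 and 24 against non-induced cells, 3 and 26 for both controls together, and 0 and 2 between the controls. Deviations from the condition means over 76 genes correlated at −0.17 for induced and non-induced replicate 1. For replicate 2 they correlated at −0.35 for induced and driver cells and at 0.26 for non-induced and driver cells. With 2 plates per condition the deviations of a gene mirror each other, so replicate 2 of induced and non-induced cells must repeat the value of replicate 1. Whether the marks pair the plates was not tested. A crossed pairing of induced and non-induced plates, chosen after seeing the data, gave 2 subunits and 19 genes.

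These log2 fold changes changed sign. Against driver cells, they were 0.085 with GAPDH alone and −0.72 to 0.11 with 1 plate left out for ITGA1 (0.11 without driver replicate 2), −0.26 with B2M alone, −0.04 with the plate median, −0.18 with the replicate block, and −0.09 to 0.50 with 1 plate left out for ITGA4 (−0.09 without driver replicate 3, −0.06 without induced replicate 1), 0.16 with GAPDH alone for ITGAV, and 0.25 with GAPDH alone and −0.33 to 0.032 with 1 plate left out for ITGB5 (0.032 without induced replicate 2). Against non-induced cells, they were 0.07 with GAPDH alone, 0.03 with the plate median and −0.54 to 0.0017 with 1 plate left out for ITGA3 (0.0017 without non-induced replicate 1), −0.28 with B2M alone and −0.15 to 0.39 with 1 plate left out for ITGA4 (−0.15 without induced replicate 1), and −0.39 with B2M alone and −0.15 to 0.19 with 1 plate left out for ITGB1 (−0.03 without non-induced replicate 1, −0.15 without induced replicate 1). Against both controls, they were −0.18 with B2M alone and −0.017 with the block for ITGA3, −0.27 with B2M alone, −0.029 with the block and −0.11 to 0.44 with 1 plate left out for ITGA4 (−0.11 without induced replicate 1), 0.048 with GAPDH alone for ITGAV, −0.03 with B2M alone for ITGB1 and 0.12 with GAPDH alone for ITGB5. Between the controls, they were −0.015 with B2M alone, −0.50 with the plate median, −0.16 with the block and −0.09 to 0.19 with 1 plate left out for ITGA2 (−0.09 without non-induced replicate 1, −0.02 without driver replicate 3), −0.46 with the plate median, −0.31 with the block and −0.21 to 0.38 with 1 plate left out for ITGA4 (−0.0033 without non-induced replicate 2, −0.21 without driver replicate 3), −0.38 with the plate median for ITGAV, −0.28 with the plate median and −0.22 with the block for ITGB3, and −0.35 with the plate median, −0.01 with the block and −0.14 to 0.53 with 1 plate left out for ITGB5 (−0.14 without non-induced replicate 1). Of the 21 differences in Ct gap, 15 kept their sign on the plates with mark 2 alone and 17 to 21 with 1 plate left out.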
